A study of Rattus norvegicus with 16 samples.

Results

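Cortical bone freed of its marrow is the hard shell of the shaft of a long bone, and the RNA measured here came from the humerus of male Sprague-Dawley rats aged 8 weeks. Of 16 Affymetrix arrays in the study, 8 carry a title that names cortical bone without marrow, and these 8 were chosen by title. The control group of 4 arrays came from rats given pellets with 12 IU of vitamin A per g. The treated group of 4 arrays came from rats given the same standard diet with retinyl palmitate and retinyl acetate added to 1700 IU per g, for 8 days. Each diet had 12 animals, kept in cages of 3. Bone pieces were vortexed in cold buffer to wash out marrow cells, after the periosteum, the ends of the bone and the growth plates had been removed. The other 8 arrays came from the same part of the bone with its marrow left in, 4 for each diet. Each array had a sample code of its own. The labels do not say which rats shared a cage, so the p-values measure the spread between these samples.

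Vitamin A is taken up as retinyl esters, stored mostly in the liver and turned in cells into retinoic acid. Retinoic acid binds nuclear receptors of the RAR family, which pair with RXR receptors on DNA and switch target genes on or off. In rodents, excess vitamin A is known for thinner long bones with fractures, for more bone-resorbing osteoclasts on the outer surface of the shaft, and for a loss of them on the inner surface. Cortical bone without marrow holds mostly osteocytes, the cells buried in the matrix, with osteoblasts, lining cells and vessels at its surfaces.

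None of these cells or genes could be looked up by name in the value table. The identifiers beside the values did not belong to them. The values follow a sorted order, since in 99.81% of neighbouring rows the upper one had the larger absolute limma t-statistic for the diet in marrow-containing bone, whereas the probe set list beside them runs in its usual catalogue order. Across the 16 arrays, 9609 pairs of rows given 1 symbol by the annotation correlated at a median of 0.012, hardly more than the 0.007 found with a partner's neighbour in its place. Comparisons within a row are not touched by this, because a row is the same feature on each array. Rows are therefore named by their number in the table, and no gene, marker or sequence is given.

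Values are log2 levels made with RMA, so a difference of 1 is 2-fold. RMA usually includes a step that gives all arrays the same distribution, but the deposited columns were not fully alike: over the 16 arrays the lower quartile ran from 4.425 to 4.667 and the distance between quartiles from 2.961 to 3.392. The label of control array 1 contradicts itself: its title names cortical bone, and its tissue field names cortical bone including marrow. The position of each array was measured on an axis that runs from 0, the cortical mean, to 1, the mean of bone with marrow, each taken without the array in question. Control array 1 stood at -0.036. Controls 2, 3 and 4 stood at 0.347, -0.208 and 0.344, and the vitamin A arrays 1 to 4 at -0.058, -0.078, -0.098 and 0.178. Control 1 thus lay among the other cortical arrays and near the treated ones. The root mean square difference of control 1 from the mean of the other cortical controls was 0.291 over all rows, and its difference from the mean of the marrow controls was 0.557. The array titled bone with marrow, control 1, whose labels contradict each other the other way round, stood at 0.704, the lowest of the marrow arrays. Marrow controls 2, 3 and 4 stood at 1.332, 1.197 and 1.172, and the treated marrow arrays between 0.798 and 0.965. In cortical bone the mean positions were -0.014 ± 0.129 (SD, n = 4) under vitamin A and 0.112 ± 0.279 in controls. The shift of -0.126 was smaller than the spread of the controls (exact two-sided permutation p = 0.3429, adjusted over 2 array-level tests 0.4857). The smallest p that 4 arrays against 4 can give is 0.0286.

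With all arrays, excess vitamin A raised more rows than it lowered, but the larger changes were mostly falls. Of 31099 rows tested in limma, 66 passed an adjusted p under 0.05 (0.212% of rows), of which 41 rose (0.132%) and 25 fell (0.0804%). The rises had a median size of 0.88 log2 units and ran from 0.42 to 1.58. The falls had a median size of 1.10 and ran from 0.47 to 1.98. Changes of at least 2-fold numbered 9 rises (0.0289%) and 16 falls (0.0514%). All 66 called rows had treated and control arrays that did not overlap. Over all rows, whatever their p, the arrays of the diets did not overlap in 717 rows that were higher under vitamin A (2.31%) and in 327 that were lower (1.05%). At an unadjusted p under 0.05, 1467 rows were higher (4.72%) and 1075 lower (3.46%). Without vitamin A array 4 these last counts were 2877 and 2301, the largest move that leaving out any of the 8 arrays gave. The order of rises and falls was not stable either, since without control 2 the fit called 24 rises and 35 falls. At 2-fold the order also moved, with 9 rises and 9 falls without control 1, and 16 and 11 without control 3. With both contradictory arrays left out these counts were 12 and 9, and with the arrays grouped by tissue field 6 and 1. Leaving out any other single cortical array kept the falls of that size more numerous.

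**Figure D1:**
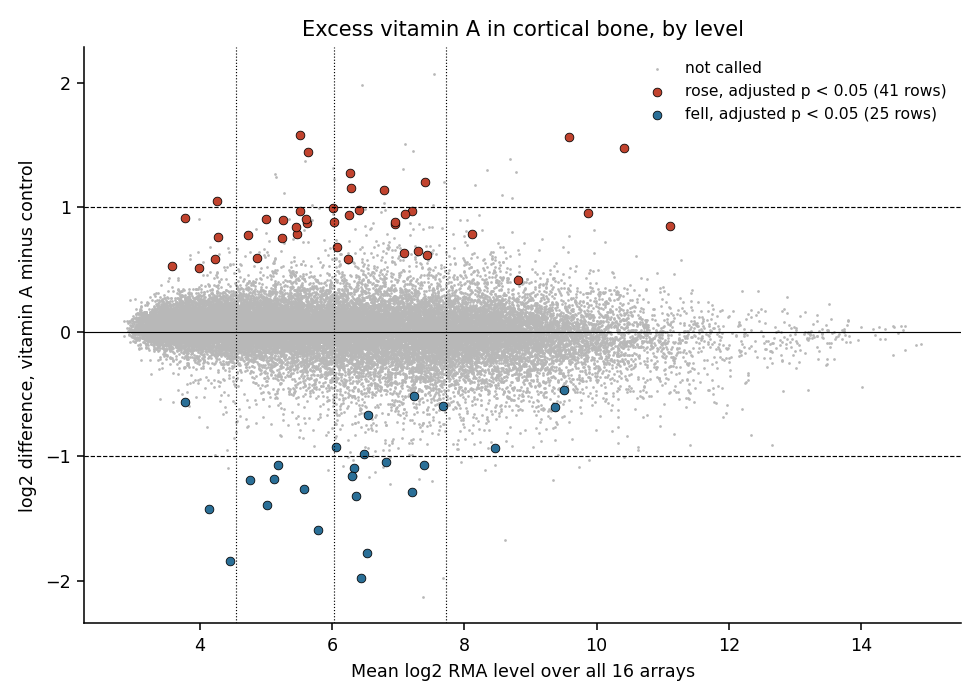
Log2 difference between vitamin A and control in cortical bone (vertical axis) against the mean log2 RMA level over all 16 arrays (horizontal axis), 1 point per row; dotted lines part 4 level classes of equal size and dashed lines mark 2-fold changes. The 41 rises (red) keep within 1.58 of zero, and the 25 falls (blue) reach 1.98, with most of the large falls in the level classes 2 and 3.

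Among the falls, row 635 changed most. Its control arrays 1 to 4 stood at 7.74, 7.82, 8.14 and 6.90, and the vitamin A arrays at 5.29, 6.32, 5.71 and 5.37. Control 4 was the lowest of the controls and was still 0.58 above the highest treated array. The means were 7.65 ± 0.53 (SD, n = 4) and 5.67 ± 0.46, a fall by 1.98 on the log2 scale or 3.93-fold (SE 0.26, limma adjusted p = 0.00269).

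Row 28795 stood at 6.21, 5.75, 6.54 and 6.21 in controls and at 4.10, 3.90, 4.45 and 4.88 under vitamin A. Each treated array lay at least 0.87 below each control, the widest gap among the named falls, and the fall was 3.59-fold (limma adjusted p = 0.000439). Row 25286 had controls at 5.74, 5.34, 5.48 and 4.89 and treated arrays at 3.77, 3.86, 3.99 and 4.12. The treated arrays were close together, with an SD of 0.15 against 0.36 in controls, and the log2 difference was -1.43 ± 0.14 (SE, limma adjusted p = 0.000439). Both rows lie in the lowest of 4 classes of mean level, and under vitamin A both stayed above their level in bone with marrow. Row 28795 averaged 4.33 in treated cortical bone and 3.68 ± 0.14 (SD, n = 4) in marrow controls, and row 25286 averaged 3.93 and 3.62 ± 0.15. The marrow levels are near the bottom of the scale.

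Row 15506 fell 3.43-fold and had the loosest controls of the named rows. They stood at 8.83, 7.37, 8.49 and 7.83, an SD of 0.66. The treated arrays stood at 6.13, 6.59, 6.37 and 6.31, an SD of 0.19 (limma adjusted p = 0.0235). Row 6666 showed the opposite. Its controls lay between 7.02 and 7.58 with an SD of 0.25, while vitamin A arrays 1 and 2 stood at 5.20 and 5.46 and arrays 3 and 4 at 6.14 and 6.19 (3.01-fold lower, limma adjusted p = 0.0278). In this row the treated arrays thus formed 2 pairs, and it was called in 11 of 20 alternatives.

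The next falls were more alike in size. Row 13516 stood at 6.16, 5.45, 6.39 and 6.51 in controls and at 4.12, 4.83, 4.79 and 5.20 under vitamin A, with control 2 only 0.24 above the highest treated array. Row 25514 went from 7.79 ± 0.26 (SD, n = 4) to 6.46 ± 0.30, and its controls (7.52 to 8.07) were 0.74 clear of the treated arrays (6.06 to 6.78). Row 27025 had controls 1, 3 and 4 at 7.06, 7.08 and 7.12, with control 2 apart at 6.17. Its treated arrays kept between 5.29 and 5.79. These rows fell by 1.39, 1.32 and 1.26 on the log2 scale, with limma adjusted p of 0.0101, 0.00269 and 0.0153.

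Row 30548 fell from 5.51 ± 0.36 (SD, n = 4) to 4.31 ± 0.17, with controls at 5.28, 5.24, 6.03 and 5.48 and treated arrays at 4.53, 4.31, 4.29 and 4.12 (limma adjusted p = 0.00198). Here control 3 was the highest array. Row 24016 had the smallest p among falls of level class 3. Its treated arrays lay within 6.15 to 6.44, and its controls stood at 7.85, 7.13, 7.50 and 7.35 (2.23-fold lower, limma adjusted p = 0.00175). In the highest level class the strongest fall by p was row 1150, from 9.69, 9.16, 9.74 and 9.47 to 8.55, 8.16, 9.01 and 8.59. Its groups were only 0.16 apart, and the fall was 1.92-fold (limma adjusted p = 0.0306), called in 10 of 20 alternatives.

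**Figure D2:**
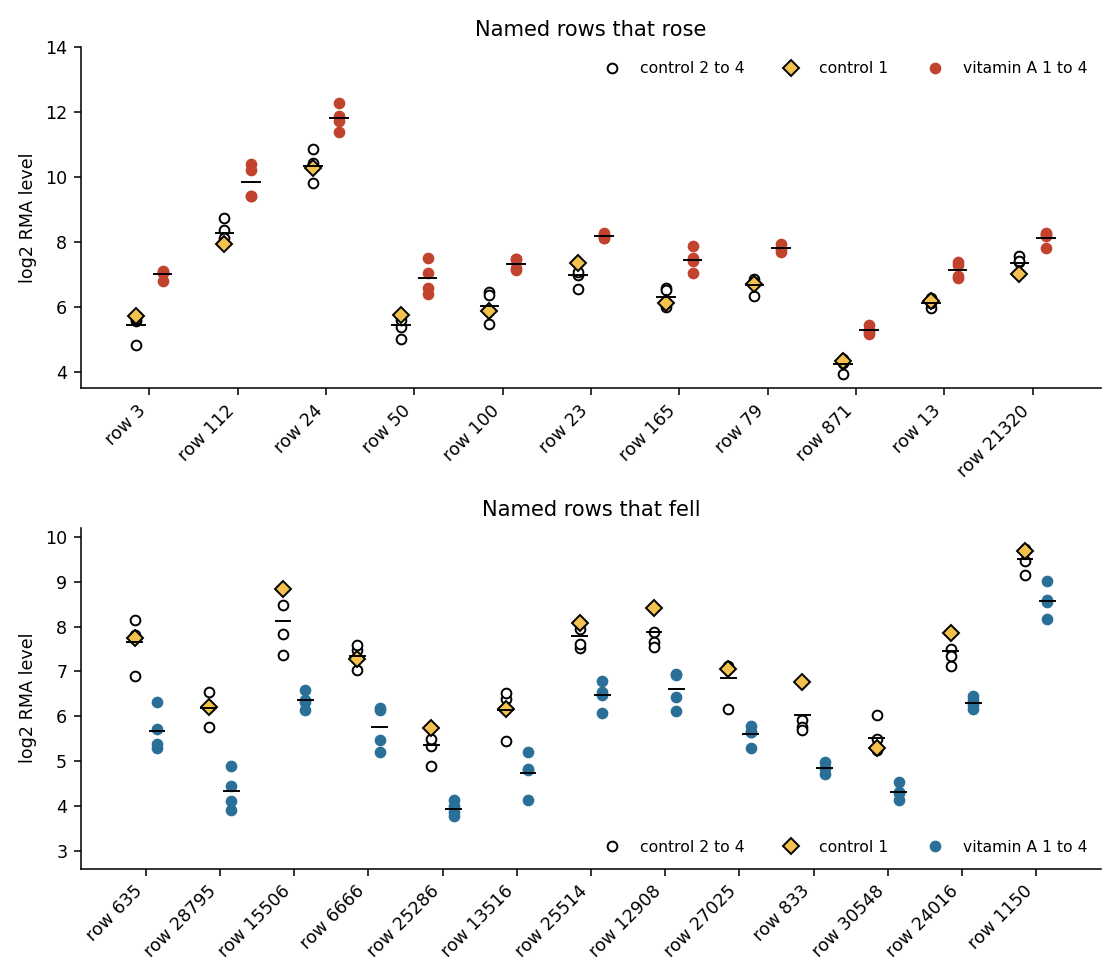
Log2 RMA level (vertical axis) of each cortical array in the 11 named rows that rose (top) and the 13 that fell (bottom), with bars at the group means of 4 arrays; yellow diamonds mark control 1. In each row the treated points lie clear of the controls, and among the falls control 1 is the highest control in rows 15506, 12908, 833, 25286, 25514 and 24016.

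The rises began with row 3. Controls stood at 5.72, 4.81, 5.58 and 5.63 and treated arrays at 7.10, 6.80, 7.06 and 7.09. Array 2 was the lowest in both groups, and the groups were 1.09 apart, the widest gap among the named rises. The rise was 2.99-fold (SE 0.20 on the log2 scale, limma adjusted p = 0.00198). Row 112 rose as much, 2.96-fold, with more spread under vitamin A. Treated arrays 1 and 2 stood at 10.22 and 10.39 and arrays 3 and 4 at 9.41 and 9.42, against 7.95, 8.74, 8.37 and 8.11 in controls (limma adjusted p = 0.0054).

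Row 24 gave a bright signal, at percentile 97.3 of the mean levels. It went from 10.28, 9.82, 10.87 and 10.43 to 11.74, 11.89, 12.29 and 11.38, so that the highest control and the lowest treated array were 0.51 apart (2.78-fold, limma adjusted p = 0.0327). The row was called in 10 of 20 alternatives. Row 50 rose 2.72-fold, with treated arrays spread from 6.40 to 7.51 and controls from 5.02 to 5.74 (limma adjusted p = 0.00789). Row 100 had loose controls at 5.88, 5.46, 6.46 and 6.37 and tight treated arrays at 7.14, 7.19, 7.49 and 7.47. Row 23 showed the same form, with controls at 7.34, 6.54, 6.99 and 7.08 and treated arrays within 8.12 to 8.29, an SD of 0.33 against 0.08. Their log2 differences were 1.28 and 1.20, with limma adjusted p of 0.00462 and 0.00117.

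Row 165 went from 6.31 ± 0.28 (SD, n = 4) to 7.46 ± 0.35, with treated array 1 highest at 7.88 and array 2 lowest at 7.04. Row 79 went from 6.67 ± 0.23 to 7.81 ± 0.10, and its treated arrays (7.68 to 7.93) were 0.82 clear of the controls. Row 13 went from 6.13 ± 0.13 to 7.12 ± 0.25, a rise just under 2-fold. These 3 rows had limma adjusted p of 0.0105, 0.00391 and 0.00462. In the lowest level class the strongest rise was row 871, from 4.32, 3.93, 4.40 and 4.28 to 5.30, 5.15, 5.24 and 5.43 (2.07-fold, limma adjusted p = 0.00117). Every treated array of this row was at least 0.76 above every control.

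Called rows came mostly from the middle of the range of levels. A row's level depends on how well its probes bind as well as on the amount of RNA, so the level describes signal on the array. Rows were parted by their mean over all 16 arrays into 4 level classes of equal size, with class 1 the lowest and bounds at 4.54, 6.03 and 7.72. From the lowest class to the highest, 9, 19, 29 and 9 rows were called, which is 0.116%, 0.244%, 0.373% and 0.116% of each. Rises numbered 6, 13, 16 and 6 and falls 3, 6, 13 and 3. Rises were thus more numerous than falls in each class, with the smallest ratio in class 3. The falls of at least 2-fold lay at 2, 6, 8 and 0 from the lowest class to the highest, and the rises of that size at 1, 2, 4 and 2. No row of the highest class fell 2-fold and passed the threshold, while rows 112 and 24 rose by more than that there. Left-out arrays changed that count of 0: it was 1 without vitamin A array 3, 2 without control 2 and 3 without vitamin A array 4. The classes rest on the marrow arrays as well. With classes drawn from the 8 cortical arrays alone, the 2-fold falls lay at 0, 6, 9 and 1 and the rises at 0, 1, 6 and 2. The median control level was 7.23 for the rows that fell and 6.04 for those that rose, and over all rows it was 6.02. Under vitamin A the same medians were 6.17, 7.01 and 6.03.

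Below the threshold, the direction changed with level. In the lowest class, 68.1% of rows had a higher mean under vitamin A, and in the following classes 60.0%, 50.5% and 44.2%. Medians of the log2 difference went from 0.047 in the lowest class through 0.036 and 0.002 to -0.024 in the highest. At an unadjusted p under 0.05 the lowest class had 315 higher and 76 lower rows, and the highest class 415 and 552. Among rows whose arrays did not overlap, higher rows outnumbered lower ones in each class, with the smallest ratio in the highest class. There were 129 higher and 41 lower in the lowest class (1.66% and 0.527%), 160 and 63 in class 2 (2.06% and 0.81%), 215 and 84 in class 3 (2.77% and 1.08%), and 213 and 139 in the highest (2.74% and 1.79%).

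This tilt with level moved with single arrays. The median of the rows of the lowest class was 4.065 in vitamin A array 1 and lay between 3.806 and 3.950 in the other 7 cortical arrays. In the highest class, control 4 had a median of 8.842 against 8.676 to 8.776 in the others. Without vitamin A array 1, the share of higher rows was 51.0% in the lowest class and 47.3% in the highest, with median differences of 0.002 and -0.011. Without control 4 the shares were 59.2% and 50.9%. Without control 1 they were 69.5% and 41.6%. With the deposited values quantile normalized, they were 53.5% and 49.9%. Over arrays, the mean of these medians differed between diets by 0.046 in the lowest class (exact two-sided permutation p = 0.3714, adjusted over the 4 classes 0.7428) and by -0.010 in the highest (p = 0.8286, adjusted 0.8286), less than the SDs of 0.059 to 0.103 and 0.044 to 0.069 within groups. Without vitamin A array 1 the fit called 32 rises and 18 falls; 25 of the 41 rises and 17 of the 25 falls were kept, and 8 rows were gained.

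**Figure D3:**
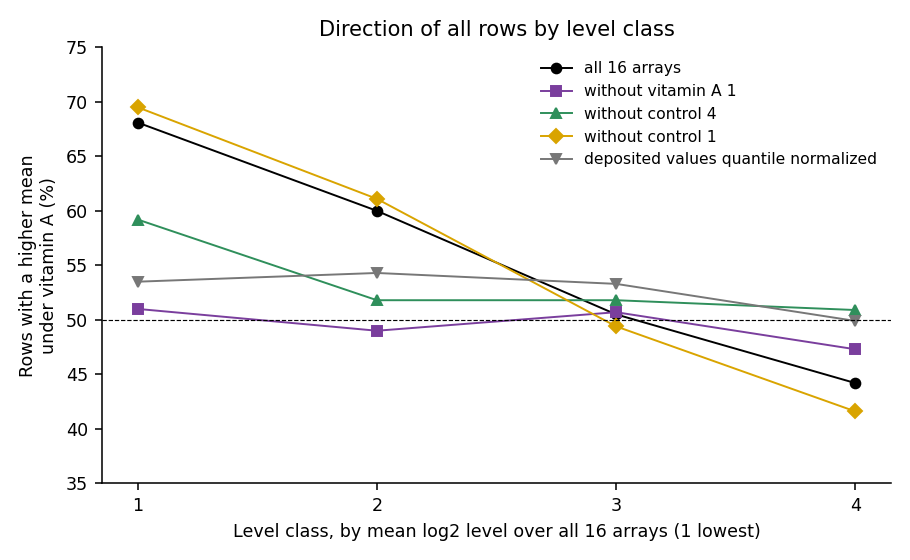
Share of rows with a higher mean under vitamin A (vertical axis, percent, from 35 to 75) in each level class (horizontal axis), for all arrays, without single arrays and after quantile normalization of the deposited values. The share goes from 68.1% to 44.2% with all arrays, and lies between 47.3% and 51.0% without vitamin A array 1.

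The vitamin A arrays were spread more widely than the controls in most rows. The median SD of a row was 0.163 in controls and 0.196 under vitamin A, and the SD was larger under vitamin A in 62.3% of rows. That share was 67.8% in the lowest level class and 57.7% in the highest. In each class the median SD was larger under vitamin A, with 0.126 against 0.172 in the lowest class and 0.168 against 0.184 in the highest.

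The wider spread lay in arrays 1 and 4 of the treated group. Their root mean square differences from the mean of the other 3 treated arrays were 0.414 and 0.394, against 0.219 and 0.253 for arrays 2 and 3. The 2 outlying arrays lay on opposite sides, and the sides turned with level. Array 1 was the highest of its group in 40.3% of rows and the lowest in 24.7%. Array 4 was the lowest in 40.0% and the highest in 24.7%. In the lowest level class array 1 had the highest median of the treated arrays (4.065) and array 4 the lowest (3.816). In the highest class array 1 had the lowest (8.676) and array 4 the highest (8.776). Among controls the same distances were 0.291, 0.270, 0.229 and 0.340 for arrays 1 to 4. As group means, the distances were 0.320 ± 0.098 (SD, n = 4) under vitamin A and 0.282 ± 0.046 in controls, a difference of 0.038 that was within the spread (exact two-sided permutation p = 0.4857, adjusted over 2 array-level tests 0.4857). Distances within a group share arrays and are not independent of each other. Larger spread under vitamin A was thus a property of many rows on 2 arrays, and was not detected as a difference between the diets with 4 arrays each.

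By their medians, the rows that fell were more spread than those that rose. The SD within controls had a median of 0.185 in the 41 rises and 0.262 in the 25 falls, and the SD within treated arrays 0.200 and 0.238. The median standard error of the difference was 0.136 for rises, 0.173 for falls and 0.127 over all rows. The treated arrays were the more spread group in 21 of the 41 rises and 13 of the 25 falls, 51.2% and 52.0% against 62.3% of all rows. In the 16 falls of at least 2-fold the medians were 0.360 in controls and 0.272 under vitamin A. The tightest controls among the called rows were found in rises chosen after their values were seen. Row 589 had controls at 6.45, 6.47, 6.47 and 6.43 and treated arrays at 7.11, 7.37, 7.89 and 7.22. Row 17 had controls at 6.98, 6.97, 6.98 and 7.02 and treated arrays at 8.21, 7.74, 8.11 and 7.78. Row 23006, near the bottom of the scale, had controls at 3.83, 3.83, 3.84 and 3.88 and treated arrays at 4.30, 4.27, 4.51 and 4.35. Each of the 3 rows passed the threshold (limma adjusted p of 0.0206, 0.00198 and 0.0228).

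Without control 1 the count of called rows went from 66 to 37, with 25 of the 41 rises (61.0%) and 12 of the 25 falls (48.0%) kept and no row gained. Of the 2-fold changes, 9 rises and 9 falls were called. All 66 rows kept their sign, and the highest adjusted p among them in that fit was 0.178 (limma). Sizes of the rises hardly moved, with a median ratio of 1.002 to the size with all arrays, while those of the falls had a median ratio of 0.946. With each of the other 7 arrays left out, the ratios of the rises lay between 0.953 and 1.042. Those of the falls lay between 0.961, without control 3, and 1.072, without control 2. In 5 of the 25 falls the size was larger without control 1. The standard errors grew by a median ratio of 1.102, which for the other 7 arrays left out in turn lay between 1.073 and 1.103.

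In the 25 rows that fell, control 1 was the highest control in 10 and the lowest in 2. In the 41 rows that rose it was the lowest control in 6 and the highest, nearest to the treated arrays, in 11. Over all rows it was the highest control in 18.9% and the lowest in 21.1%. This was not particular to control 1. Control 3 was the highest control in 9 of the 25 falls and the lowest in 1. In the 41 rises control 3 was the highest in 16 and the lowest in 2. Control 2 stood the other way, the lowest control in 16 of the 25 falls and in 21 of the 41 rises. Control 4 was the highest in 6 falls and the lowest in 6, and in the rises the highest in 7 and the lowest in 12. Control 4 was the array farthest from the rest of its group in 39.1% of all rows, and control 1 in 16.9%, the least of the controls.

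Of the other 7 arrays, vitamin A array 3 was the one that lowered the count as far as control 1 did. Without it the fit called 36 rows, 22 rises and 14 falls, each of them among the 66. The count was 50 without control 3, 52 without control 4, 50 without vitamin A array 1 and 49 without vitamin A array 2. These counts include rows that were gained. Of the 66 rows, 28 rises and 12 falls were kept without control 3, as few falls as without control 1. Without control 2 the fit called 59, but 24 rises and 35 falls, and 25 of those falls were 2-fold or more. Of the 66 rows, 24 rises and 21 falls were kept in that fit. Without control 3, and without vitamin A array 4, 16 rises of at least 2-fold were called instead of 9. Without vitamin A array 4 the count was 80. A core of 29 rows, 18 rises and 11 falls, was called whichever of the 8 arrays was left out.

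The rows that moved most without control 1 were 3 falls and 3 rises. Row 833 had control 1 at 6.76 and the other controls at 5.91, 5.76 and 5.70, with treated arrays from 4.72 to 4.97. Its log2 difference was -1.19 with control 1 and -0.94 without, and it stayed past the threshold (limma adjusted p = 0.00789 and 0.00591, with a range of 0.00591 to 0.686 over the alternatives). Row 15506 had control 1 highest at 8.83, and without it the difference was -1.55 instead of -1.78 and lost the call (limma adjusted p = 0.0973, range over alternatives 0.00637 to 0.763). Row 12908 had control 1 at 8.42 and the other controls from 7.55 to 7.87, with treated arrays from 6.12 to 6.93. Its difference went from -1.28 to -1.10 and kept the call (limma adjusted p = 0.00996 and 0.037, range 0.00748 to 0.392).

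Among rises, row 23 had control 1 as its highest control and rose by more without it, 1.32 instead of 1.20. Rows 112 and 21320 had control 1 as their lowest control, at 7.95 and 7.01, and rose by less, 1.45 instead of 1.57 and 0.67 instead of 0.78. The 3 rows kept the call (limma adjusted p without control 1 of 0.000687, 0.0282 and 0.044, with ranges over the alternatives of 0.000687 to 0.138, 0.00275 to 0.605 and 0.00748 to 0.803). The other controls of row 21320 stood at 7.57, 7.38 and 7.42, and its treated arrays at 8.19, 8.26, 7.80 and 8.27.

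Of the 24 named rows, 6 lost the call without control 1. Besides row 15506 these were the rises in row 24 (limma adjusted p = 0.114, range over the alternatives 0.0136 to 0.264) and row 165 (0.0525, range 0.00369 to 0.345). The falls were those in row 6666 (limma adjusted p = 0.0821, range 0.0174 to 0.757), row 27025 (0.0728, range 0.000883 to 0.757) and row 1150 (0.131, range 0.0113 to 0.861). Each kept its sign.

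If the tissue field is taken in place of the title, control 1 moves to bone with marrow, and control 1 of bone with marrow, which stood at 0.704 on the tissue axis, moves into the cortical controls. The fit then called 13 rows, 12 rises and 1 fall, all of them among the 66. Rises had a median size ratio of 1.088 to the grouping by title and falls 0.643, and the standard errors a ratio of 1.347. With both contradictory arrays left out, 43 rows were called, 31 rises and 12 falls, of which 38 were among the 66.

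The spread of the marrow arrays entered the calls as well. A fit of only the 8 cortical arrays, with 6 residual degrees of freedom in place of 12, called 6 rows, 4 rises and 2 falls, with 1857 rows at an unadjusted p under 0.05. In that fit, leaving out control 1 gave 0 calls by limma, with 1364 rows at an unadjusted p under 0.05. No other array was left out of that fit, so this loss cannot be set against that from another array. The sign of the difference held in all 66 rows under both fits.

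**Figure D4:**
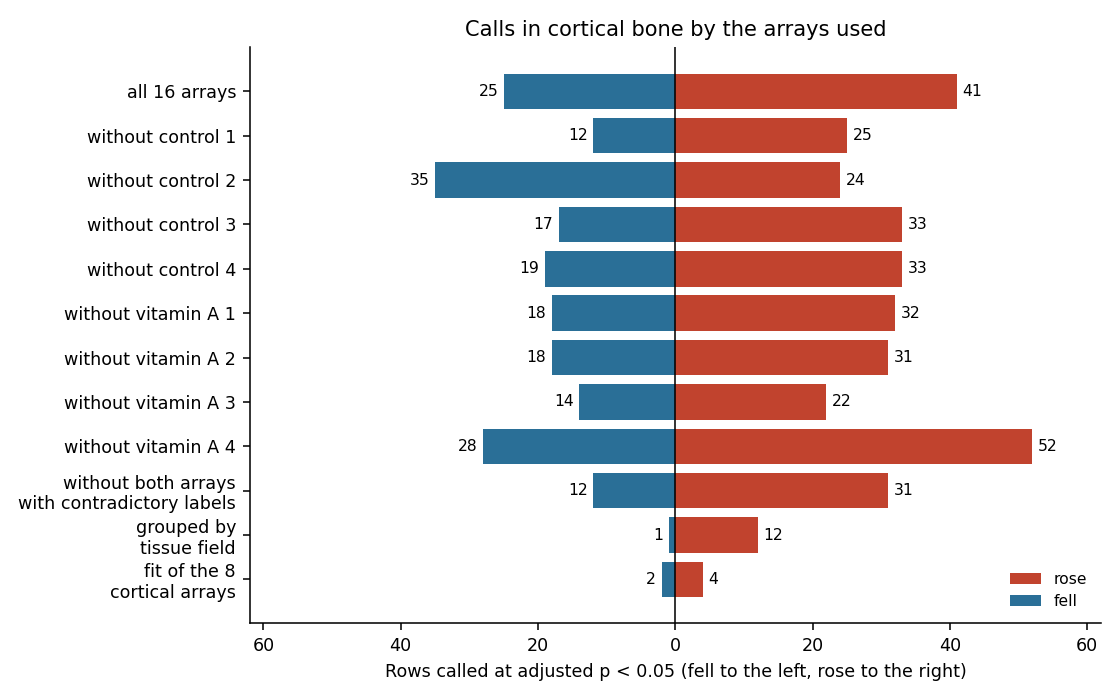
Number of rows called at an adjusted p under 0.05 (horizontal axis; falls to the left in blue, rises to the right in red) with all arrays, with each cortical array left out, and under other groupings. Leaving out control 1 gives 12 falls and 25 rises, and grouping by tissue field gives 1 fall and 12 rises.

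Most rows that rose in cortical bone also passed an unadjusted test in the same direction in bone with marrow, and fewer than 1 in 2 of those that fell did. The 2 tissues share no array, although 1 spread per row was estimated over both. The fit takes no account of rats or cages that the tissues may share. In bone with marrow, 39 of the 41 rises had a higher mean, against 42.3% of all rows, and 31 (75.6%) passed an unadjusted p under 0.05 in that direction, against 5.44%. Of the 25 falls, 16 had a lower mean, against 57.7% of all rows, and 8 (32.0%) passed, against 3.82%. The median difference in bone with marrow was 0.43 for the rises and -0.05 for the falls. At an adjusted p under 0.05, which 0.389% of rows reached in bone with marrow, 13 of the rises and none of the falls were called by limma. With separate fits of each tissue, new lists of 41 rises and 25 falls were taken by the smallest p in cortical bone, called or not. Of these, 34 rises and 7 falls passed the unadjusted threshold in bone with marrow, against 6.39% and 5.58% of all rows in those fits. For the rows called without control 1, the counts were 20 of 25 and 3 of 12. Without both contradictory arrays they were 24 of 31 and 3 of 12, against 6.83% and 4.52% of all rows.

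Named rows show both forms. Row 3 stood at 4.49, 3.94, 3.99 and 3.68 in controls of bone with marrow and at 5.77, 5.24, 5.87 and 5.57 under vitamin A, a rise by 1.59 next to 1.58 in cortical bone. Row 24 rose there by 1.77 and row 112 by 1.15 (limma adjusted p = 0.00338, 0.00965 and 0.0407 for the 3 rows). Row 871 stood at 3.82, 3.33, 3.37 and 3.73 in those controls and at 3.81, 3.95, 4.02 and 3.96 under vitamin A. Its difference was 0.37 next to 1.05 in cortical bone (limma adjusted p = 0.284).

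The largest falls had little counterpart. Row 28795 stood at 3.58, 3.83, 3.53 and 3.76 in controls of bone with marrow and at 3.80, 3.72, 3.31 and 3.79 under vitamin A. Row 25514 stood between 5.47 and 5.74 in those controls and between 5.09 and 5.87 under vitamin A. Row 6666 was 0.44 higher under vitamin A there, within its spread (limma adjusted p = 0.702). Row 635 was the exception by size, at 7.03, 6.34, 6.91 and 6.26 in controls and 6.14, 5.79, 5.66 and 5.52 under vitamin A. Its difference there was -0.86, with an unadjusted p of 0.0047 and a limma adjusted p of 0.241.

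The test of the difference between the tissues' effects passed the threshold in 1 named row, row 25286, with a difference of 1.47 ± 0.20 (SE, limma adjusted p = 0.0385; 0.00322% of rows were called). Row 28795 had 1.82 ± 0.27 (limma adjusted p = 0.0558). At an unadjusted p under 0.05, which 3.99% of rows reached, 22 of the 25 falls (88.0%) and 18 of the 41 rises (43.9%) had effects that differed. The falls and rises were chosen on the effect in cortical bone, which is a part of that difference, so these shares are a description and no test of it.

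The levels in bone with marrow give the setting of the falls. Rows that fell had a median of 7.23 in control cortical bone, 6.17 in treated cortical bone and 5.90 in bone with marrow. Rows that rose had medians of 6.04, 7.01 and 5.67. In all 25 falls the mean of bone with marrow lay below that of control cortical bone. It did so in 31 of the 41 rises too, and in 15075 of the 31099 rows. The falls were called on these same control levels, so their count is a description and no test. A fall in a row whose marrow level lies below its cortical control level sets out towards the marrow level whatever its size. Several of the named falls ended above their level in bone with marrow. Row 15506 went from 8.13 to 6.35 and averaged 5.68 in marrow controls, and row 27025 went from 6.86 to 5.59 and averaged 4.94. Row 30548 went below that level, from 5.51 to 4.31 against 4.59, and row 12908 went from 7.88 to 6.59 against 7.29. Without gene names the cell types behind these rows could not be looked up, and the part of remaining marrow in the falls was not tested. With each array's position as a covariate, the fit called 45 rises and 46 falls, and all 25 falls kept the call. The position is a single value per array taken from these same rows, so this fit is no test of marrow in single rows. In bulk RNA, fewer cells of a type and less RNA per cell cannot be told apart.

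**Figure D5:**
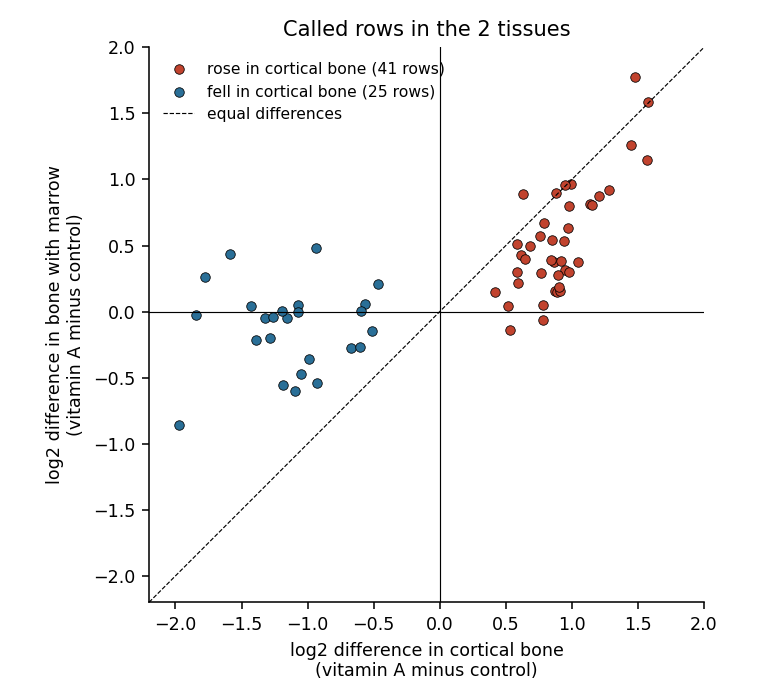
Log2 difference between vitamin A and control in bone with marrow (vertical axis) against that in cortical bone (horizontal axis) for the 66 called rows, with a dashed line where both are equal. Of the 41 rises, 39 have positive values in bone with marrow too (median 0.43), while the 25 falls have a median of -0.05 there and run from -0.86 (row 635) to 0.48 (row 1150).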

How the data were processed

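The deposited values are log2 expression levels made by the authors with RMA, per the submitters' processing notes; its version is not given in the sources used here. There were 31099 rows and 16 columns, 1 per array, all mapped to a sample. The number of arrays limits the precision. Arrays were grouped by title. All rows were tested with limma 3.58.1 in R 4.3.3 (lmFit with 4 group means over 16 arrays, then eBayes with a trend by level; 12 residual degrees of freedom), two-sided, with Benjamini-Hochberg adjustment over all rows. The fit was tested on simulated data with known changes. Values per array were compared by exact two-sided permutation tests over the 70 assignments of 4 of 8 arrays (scipy 1.17.1). Figures were drawn with matplotlib 3.10.9.

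The 24 named rows are the 10 largest rises and 10 largest falls without overlap, the smallest p per direction and level class, and the 3 rows per direction that move most without control 1. The arrays, the questions and these rules were chosen with earlier results of these data known. Alternatives were quantile normalization of the deposited values, median centring, rows above the 30th percentile of level, eBayes without trend or robust, array weights, other thresholds, other groupings, a replicate block, the position on the tissue axis as a covariate, and each cortical array left out. Shares per level class under these alternatives and the counts in bone with marrow under other fits were added after seeing the data.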

Additional observations from a re-analysis of the deposited data

Results flagged for a closer look

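In 7 of 60 groups of 4 arrays, 1 array was set apart by its gap to the nearest other, taken as a ratio to the whole range. Chance gives about 1 in 20 for groups that are independent and not selected. These groups include named rows chosen by their values and level medians of the same arrays, so the 7 cannot be read against that share. Vitamin A array 4 had the highest position on the tissue axis of its group, 0.178 against -0.098 to -0.058 (ratio 0.853). Control 4 had the highest median in level class 3, 6.913 against 6.832 to 6.838 (0.927), and in the highest class, 8.842 against 8.696 to 8.709 (0.912). In row 3, array 2 was the lowest both in controls (0.848) and under vitamin A (0.86). Control 2 was the lowest in row 27025 (0.937), and vitamin A array 3 the lowest in row 21320 (0.839). Row 25286 had unlike effects in the tissues by the test of their difference (limma adjusted p = 0.0385), with a fall by 1.43 on the log2 scale in cortical bone and a difference of 0.04 in bone with marrow, where its level was 3.62 in controls.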

How the results depend on the processing

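Against 66 rows called in cortical bone (41 rises, 25 falls; 9 and 16 at 2-fold), array weights gave 114 (73 and 41; 18 rises at 2-fold), and an adjusted p under 0.01 gave 30 (19 and 11; 10 falls at 2-fold). An adjusted p under 0.10 gave 105, with 69 rises. The tissue field gave 13 (12 and 1; 1 fall at 2-fold), both contradictory arrays left out 43 (12 falls, 9 at 2-fold), only the 8 cortical arrays 6 (4 and 2; 3 and 2 at 2-fold), and those without control 1 gave 0 of each kind by limma, with 1364 rows at an unadjusted p under 0.05. Only control 1 was left out of the fit of the 8 cortical arrays. Position as a covariate gave 46 falls, and quantile normalization of the deposited values 14 rises at 2-fold. The numbers of the replicates were not taken to pair the samples. Between the cortical diet groups, same-numbered deviations correlated at 0.017, 0.092, 0.102 and 0.402, and 3 of 8 arrays correlated best with their own number. Same-numbered arrays of the 2 tissues were not compared. With the replicate block the count was 103 (65 rises, 38 falls). Leaving out single cortical arrays, the count lay between 36 and 80, rises between 22 and 52, falls between 12 and 35, and those at 2-fold between 8 and 16 and between 9 and 25. The cause of these moves was not tested.

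Named rows whose effect differed between the tissues numbered 1. The number was 0 for rows above the 30th percentile (which leave out row 25286), without trend, with the tissue field and with the replicate block, 2 with array weights, and 0 to 2 without single arrays (by limma; in the fit of all 16 arrays, 1242 rows had an unadjusted p under 0.05). The shift of position lay between -0.233 and -0.048 without single arrays, and the difference of distance between -0.007 (without control 3) and 0.108. The difference of medians went from -0.012 to 0.008 in level class 3 and from -0.010 to 0.002 in the highest with quantile normalization of the deposited values. Without single arrays it lay between -0.029 and 0.007 and between -0.027 and 0.024, and in the lower classes between 0.003 and 0.086 and between 0.003 and 0.059. The sign turned without control 4 (0.007 and 0.024) and without vitamin A array 1 (0.007 and 0.007). No named row changed sign in 476 fits, and 98 of these lost the call. Rows near the bottom of the scale, such as rows 28795 and 25286 in bone with marrow, limit what a fall could show there.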
